A study of Mus musculus with 8 samples.

Results

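The 8 mouse genes described here encode interleukin-1 (IL-1) family cytokines and parts of the inflammasome, the complex that activates some of these cytokines: Il1a, Il1b, Il1rn, Il18, Nlrp3, Casp1, Casp4 and Pycard. They were taken by name from the 37252 annotated genes of the mm9 genome, 22350 of them protein-coding, and all 8 were found. For each gene, NFATc2 binding was read from peak summits within 100 kb of any annotated transcription start site (TSS), and the promoter mark H3K4me3 (trimethylated lysine 4 of histone H3) from peaks that overlapped the gene or lay within 1 kb of a TSS.

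The data came from D1 cells, a long-term line of splenic dendritic cells (DCs) from C57BL/6 mice. One population stably carried NFATc2 (NFAT1) with a V5 tag, delivered by a lentivirus, with sorting for low reporter signal, and received 10 μg/ml curdlan for 30 min before chromatin immunoprecipitation (ChIP) with an anti-V5 antibody. H3K4me3 was mapped in non-treated (NT) D1 cells, in cells given 10 μg/ml curdlan for 2 h, and in cells given curdlan with FK506 for 2 h. Curdlan is a β-glucan that engages dectin-1, a receptor for fungal cell walls, and FK506 inhibits calcineurin, the phosphatase that lets NFAT enter the nucleus. The labels do not state how much FK506 was used. Each condition had 1 ChIP library with 1 matched input, so no difference between conditions could be set against replicate spread, and the intervals below cover counting error only. NFATc2 was mapped in the curdlan condition only, from a tagged protein expressed in addition to the cells' own. ChIP libraries held 14377535 (NFATc2), 16662316 (NT), 21289349 (curdlan) and 19468498 tags (curdlan + FK506). H3K4me3 peaks were found at 8 of 8 DC genes in every list, Itgax, Flt3 and the dectin-1 gene Clec7a among them, and at 1 of 10 genes of fibroblasts, lymphocytes and epithelium, the B-cell factor gene Pax5, at 12.1, 10.5 and 11.5 RPM (tags per 1000000 ChIP tags).

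Il1a and Il1b encode IL-1α and IL-1β, which act through the same receptor to drive fever and inflammation, and Il1rn encodes the antagonist that blocks that receptor. IL-1β and IL-18 are made as inactive precursors. The sensor NLRP3 gathers the adaptor ASC, the product of Pycard, into an inflammasome in which caspase-1, the product of Casp1, is activated and cleaves both precursors. Casp4, known in mouse as caspase-11, senses bacterial lipopolysaccharide in the cytosol. In DCs and macrophages the genes of IL-1β and NLRP3 are induced by microbial signals before an inflammasome can assemble, and β-glucans are among these signals.

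The sequences below come from mm9 and show binding sites and promoters described in the results. A motif match in them is a description, and its effect was not tested. The 6 windows of 201 bp are centred on NFATc2 summits and are written on the plus strand. They show the strongest site upstream of Il1a and the summits closest to Il1a and Il1b upstream of each. They also show the Nlrp3 sites at -135 and 1444 bp, and the site upstream of Il18 with the most tags. Capitals mark matches on either strand to GGAAAA, the NFATc2 motif that the authors reported, to the AP-1 motif TGANTCA, or to the kappa B motif of NF-κB. The shorter GGAAA alone is not marked. The summit windows at 12131 bp in Nlrp3 and 7083 bp from Il1b are not printed, and they hold none of GGAAAA, AP-1 and kappa B. A GGAAAA match can overlap a kappa B match.
Il1a -10362 bp (chr2:129145970-129146170): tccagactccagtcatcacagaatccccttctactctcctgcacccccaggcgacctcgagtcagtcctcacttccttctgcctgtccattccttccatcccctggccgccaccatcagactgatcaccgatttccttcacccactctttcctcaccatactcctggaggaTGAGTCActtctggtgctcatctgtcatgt
Il1a -1862 bp (chr2:129137470-129137670): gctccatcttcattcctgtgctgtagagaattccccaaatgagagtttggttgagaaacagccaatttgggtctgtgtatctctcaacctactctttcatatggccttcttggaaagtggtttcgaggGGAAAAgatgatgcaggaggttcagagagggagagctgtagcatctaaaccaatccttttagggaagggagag
Il1b -2312 bp (chr2:129199087-129199287): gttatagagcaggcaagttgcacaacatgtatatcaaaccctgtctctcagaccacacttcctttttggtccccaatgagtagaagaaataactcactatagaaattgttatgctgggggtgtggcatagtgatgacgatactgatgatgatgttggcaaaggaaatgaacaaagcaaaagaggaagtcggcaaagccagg
Nlrp3 -135 bp (chr11:59354835-59355035): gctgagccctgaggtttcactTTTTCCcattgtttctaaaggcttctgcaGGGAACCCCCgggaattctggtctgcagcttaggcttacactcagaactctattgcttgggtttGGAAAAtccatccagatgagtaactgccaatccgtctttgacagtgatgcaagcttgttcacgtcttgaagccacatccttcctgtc
Nlrp3 1444 bp (chr11:59357602-59357802): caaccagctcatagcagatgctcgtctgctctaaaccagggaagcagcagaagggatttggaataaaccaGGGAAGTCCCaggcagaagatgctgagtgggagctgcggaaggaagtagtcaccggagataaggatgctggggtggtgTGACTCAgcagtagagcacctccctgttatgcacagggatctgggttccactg
Il18 -21544 bp (chr9:50361734-50361934): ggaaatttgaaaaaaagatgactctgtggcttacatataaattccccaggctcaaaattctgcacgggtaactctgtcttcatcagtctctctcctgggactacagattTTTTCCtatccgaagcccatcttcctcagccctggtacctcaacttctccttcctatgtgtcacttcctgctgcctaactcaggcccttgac

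The 3 promoters are the 250 bp before the first TSS on the strand of the gene: Casp4, whose H3K4me3 differed most between conditions among the 4 genes with a peak in every list, its neighbour Casp1, whose mark differed little, and Il1a, which had a peak only after curdlan. ISRE, the motif of interferon-regulated genes, was searched in addition and has no match in them.
Casp4 promoter (chr9:5308578-5308827): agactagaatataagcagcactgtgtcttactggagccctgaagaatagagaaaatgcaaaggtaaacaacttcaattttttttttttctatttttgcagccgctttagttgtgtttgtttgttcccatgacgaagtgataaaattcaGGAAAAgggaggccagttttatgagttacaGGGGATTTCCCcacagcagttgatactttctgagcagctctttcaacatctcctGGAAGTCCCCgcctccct
Casp1 promoter (chr9:5298267-5298516): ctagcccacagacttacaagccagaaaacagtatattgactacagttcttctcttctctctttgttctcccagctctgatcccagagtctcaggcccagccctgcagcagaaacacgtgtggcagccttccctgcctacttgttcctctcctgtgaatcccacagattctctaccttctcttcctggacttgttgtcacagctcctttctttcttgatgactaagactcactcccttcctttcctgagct
Il1a promoter (chr2:129135709-129135958): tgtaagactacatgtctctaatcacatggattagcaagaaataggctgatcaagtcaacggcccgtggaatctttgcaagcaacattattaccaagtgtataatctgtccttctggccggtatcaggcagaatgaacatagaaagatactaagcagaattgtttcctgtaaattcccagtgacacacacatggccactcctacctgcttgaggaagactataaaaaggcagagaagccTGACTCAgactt

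NFATc2 summits lay within 100 kb of the cytokine genes, Nlrp3 and Pycard, and none lay within that distance of the caspase genes. Only Il1a, Il1b and Nlrp3 had a summit within 10 kb. Across the 8 genes there were 29 pairs of a gene and a summit within 100 kb, made by 21 distinct summits. A summit lay within 100 kb of 6 of 8 genes, against 55.4% of protein-coding genes, and within 10 kb of 3 of 8, against 16.3%. The number within 100 kb had a median of 3.5 over the 8 genes and 1 over all protein-coding genes. The 21 peaks held 24 to 484 tags, with a median of 87, against a median of 63 over all 9438 NFATc2 peaks. The p that MACS, the peak caller, gave each peak against its local input background was 1e-10 or less for 11 of them. The share of all 9438 peaks at this p is not given, so the count does not rank the 21 against them. One of the 8 genes was the nearest annotated gene of only 4 of the 21 summits: 3 at Nlrp3 and 1 at Il1a.

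**Figure D1:**
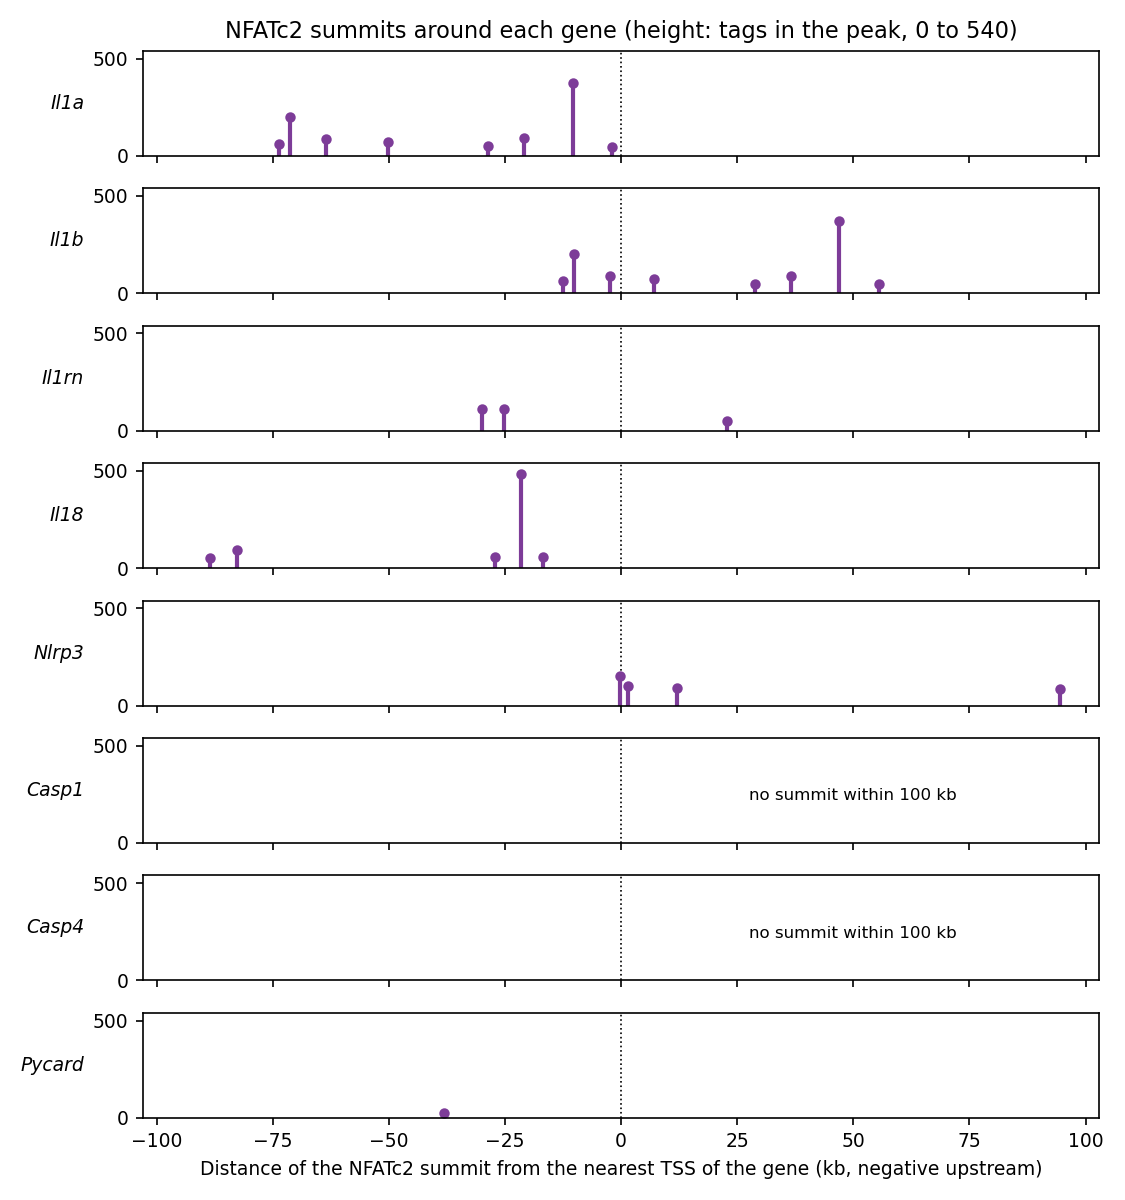
NFATc2 summits within 100 kb of each gene, 1 panel a gene; the horizontal axis is the distance from the nearest TSS of that gene in kb, negative upstream, and the height is the number of tags in the peak. The same 8 summits stand in the panels of Il1a and Il1b, the highest summit (484 tags) lies upstream of Il18, Nlrp3 has summits at its promoter and inside the gene, and the panels of Casp1 and Casp4 are empty.

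Il1a (chr2:129125346-129135708, minus strand) and Il1b (chr2:129190306-129196875, minus strand) lie in the same orientation with their TSSs 61.2 kb apart, and the same 8 summits fell within 100 kb of both. At least 8 summits within that distance were found for 254 protein-coding genes, 1.14% of them. All 8 lay upstream of the Il1a TSS, from 1.86 to 73.7 kb away. The strongest, 10.4 kb upstream of Il1a, held 373 tags at a fold enrichment of 20.43 over the local input background and a caller's p of 3.9e-91, more tags than 99.2% of all NFATc2 peaks. Its window, printed above, has an AP-1 match that starts 71 bp to the right of the summit. It has no GGAAAA, but the shorter GGAAA stands on the minus strand 31 and 47 bp to the right. GGAAA is found in 86.7% of all such windows. The site nearest to Il1a, 1862 bp upstream, was among the weak ones, with 46 tags and a caller's p of 6.2e-06. It carries GGAAAA 28 bp to the right of its summit.

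The summits closest to Il1b were 2312 bp upstream of its first TSS (position 129196875), with 87 tags at a caller's p of 1.3e-08, and 7083 bp downstream of its inner TSS (position 129193087), beyond the 3′ end of the gene, with 72 tags at a caller's p of 1.9e-12. The upstream one lies in an exon of the noncoding gene Gm14047, 322 bp from the TSS of that gene, so its position does not assign it to either gene. Neither window has GGAAAA, AP-1 or kappa B, and the upstream one has the shorter GGAAA 61 bp to the right of its summit. A pair of further sites stood 10123 and 12524 bp upstream of Il1b with 200 and 62 tags, and both have GGAAAA, 11 bp to the right and 3 bp to the left of the summit.

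Il1rn lies 104.9 Mb from Il1a on the same chromosome (chr2:24192373-24207014, plus strand). It had 3 summits, 113 tags at 29958 bp and 109 tags at 25161 bp upstream, and 48 tags at 22733 bp downstream of its nearest TSS, the last inside an intron of Psd4. As many or more were found for 20.1% of protein-coding genes. All 3 windows have GGAAAA.

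Il18 (chr9:50383378-50389942, plus strand) had 5 summits, all upstream, from 16.8 to 88.5 kb away, a number reached by 6.81% of protein-coding genes. The summit 21.5 kb upstream held the most tags of the 21, with 484 at a fold enrichment of 27.08 and a caller's p of 4.0e-66, more tags than 99.7% of all NFATc2 peaks. It is in an intron of another gene, Bco2, 1452 bp from the Bco2 TSS, and inside the H3K4me3 peak of Bco2 in every list. GGAAAA stands on the minus strand 9 bp to the right of it, as TTTTCC in the window above. The other 4 held 54 to 95 tags.

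Nlrp3 (chr11:59355070-59380458, plus strand) was the only one of the 8 with a summit within 1 kb of its TSS. Its 135-bp upstream summit held 151 tags at a fold enrichment of 6.25 and a caller's p of 1.4e-07. The window has GGAAAA starting 79 bp to the left and 14 bp to the right of the summit, and a kappa B match between them. Summits inside introns lay 1444 bp from the nearest TSS, with 100 tags at 18.75-fold and a caller's p of 1.3e-17, and 12131 bp from it, with 91 tags at 22.47-fold and a caller's p of 6.2e-23. The former has kappa B and AP-1 and no GGAAAA. The latter has none of the 3 motifs, and the shorter GGAAA 50 bp to the right of its summit. The last of its 4 summits, 94.4 kb downstream, was nearer to Mprip.

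Casp1 (chr9:5298517-5307265, plus strand) and Casp4 (chr9:5308828-5336783, plus strand) are direct neighbours with TSSs 10.3 kb apart. The nearest NFATc2 summit was 1963 kb from Casp1 and 1939 kb from Casp4. Pycard (chr7:135135617-135137381, minus strand) had 1 summit, 38185 bp upstream, with 24 tags at a caller's p of 4.9e-07, fewer tags than all but 4.14% of NFATc2 peaks.

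Over the 21 windows of 201 bp, 12 have GGAAAA, against 45.6% of all 9438. AP-1 stands in 3, against 21.8% of all, kappa B in 3, against 5.04%, and ISRE in 0, against 6.50%. These contrasts depended on the motif and window: GGAAAA preceded by A or T stood in 8 of 21, against 37.8% of all, GGAAA in 18, against 86.7%, and AP-1 within 250 bp of the summit in 7, against 30.9%. Of the 21 summits, 16 were inside no H3K4me3 peak of the 3 lists, against 73.3% of all summits, and 4 were inside a peak in all 3 lists, against 19.95%. Those 4 were the Nlrp3 sites at -135 and 1444 bp and the sites in Bco2 and Psd4. The remaining one, at 12131 bp in Nlrp3, was inside a peak with curdlan and with curdlan + FK506, and its NFATc2 peak began 1.42 kb past the end of the nearest NT peak.

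H3K4me3 separated the 8 genes into 3 classes. Nlrp3, Casp1, Casp4 and Pycard had a peak in every list. Il1a and Il1rn had a peak with curdlan and with curdlan + FK506 and none in NT. Il1b and Il18 had none in any list. The share of protein-coding genes with a peak was 51.5% in NT, 51.2% with curdlan and 51.1% with curdlan + FK506, against 4, 6 and 6 of 8 genes here. A peak with curdlan and none in NT was found at 0.658% of protein-coding genes, or 1.35% of those with none in NT (147 of 10850), and no peak in any list at 47.7%. A gene without a listed peak was below the caller's threshold, and the level there was not measured, so no fold is given against it.

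**Figure D2:**
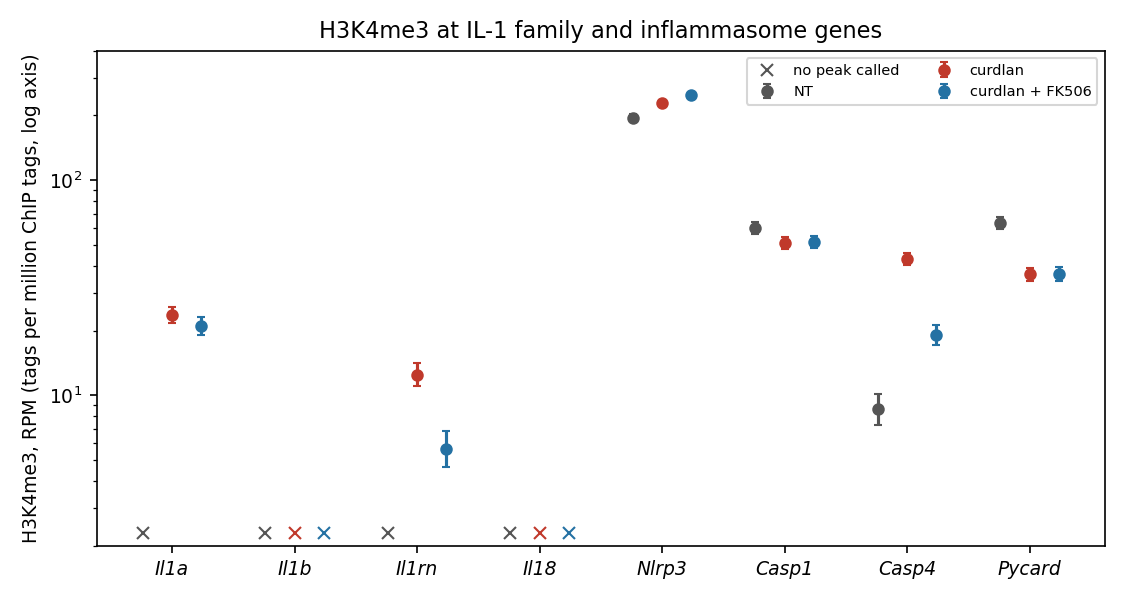
H3K4me3 RPM at each gene (log axis) in NT, curdlan and curdlan + FK506; points are the sum over the gene's peaks in 1 library, bars the exact 95% Poisson interval of the tags, and crosses at the bottom mark that no peak was called. Casp4 was 8.64, 43.2 and 19.1, with intervals that do not overlap. Casp1 lay between 51.1 and 60.1, and its NT interval (56.4 to 63.9) stood above those of curdlan and curdlan + FK506.

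Among the cytokine genes, Il1a had 504 tags with curdlan, or 23.7 RPM (95% interval 21.7 to 25.8), over 3818 bp. With curdlan + FK506 it had 409 tags, or 21.01 RPM (19.0 to 23.1), over 3293 bp. The intervals of the 2 conditions overlap, and relative to all genes the log2 ratio of curdlan + FK506 to curdlan was -0.13 (-0.32 to 0.06). On the fold enrichment given by the caller, 17.5 and 22.25, it was 0.62, past 1.5-fold in the other direction, and per kb of peak it was 0.05. The upstream edge of the peak stood at -682 bp from the TSS with curdlan and at -149 bp with curdlan + FK506, and the edge inside the gene at 3.13 and 3.14 kb. The NFATc2 peak of the 1862-bp site began 0.759 kb outside the curdlan H3K4me3 peak. A further peak of 211 tags (9.91 RPM, chr2:129139336-129141437) was listed with curdlan only, 3.63 to 5.73 kb upstream of Il1a. It lay between the 1862-bp and 10362-bp NFATc2 sites and covered the TSS of a U12 small nuclear RNA gene.

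The Il1rn peak lay at an inner TSS (position 24200808), and with curdlan it spanned 8191 to 11220 bp into the gene. It held 266 tags with curdlan, or 12.5 RPM (11.0 to 14.1), over 3030 bp, and 110 tags with curdlan + FK506, or 5.65 RPM (4.64 to 6.81), over 2159 bp. The curdlan + FK506 value was lower, with a log2 ratio of -1.10 relative to all genes (-1.44 to -0.78), a 2.15-fold difference. On the caller's fold enrichment, 16.53 and 10.67, the centred log2 ratio was -0.36, short of 1.5-fold. The peak held few tags in both lists: a lower RPM was found at only 9.57% and 4.26% of protein-coding genes with a peak.

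For Il1b the nearest H3K4me3 peak was 14.8 to 15.0 kb away in all lists. That peak, upstream of the gene and beyond the NFATc2 sites at 10123 and 12524 bp, had 24.7, 24.3 and 23.5 RPM in NT, curdlan and curdlan + FK506. No TSS lay within 1 kb of it. For Il18 the nearest peak was 8.54 kb away in NT, a weak one of 87 tags with a false discovery rate of 15.4%, and 18.3 and 19.1 kb away in the other lists. The H3K4me3 of Bco2, summed over its peaks, measured 40.3, 43.8 and 29.5 RPM. With curdlan the caller split it into peaks of 30.6 and 13.2 RPM, and the first holds the 484-tag NFATc2 summit. The centred log2 ratio of the sum was 0.25 for curdlan against NT and -0.53 for curdlan + FK506 against curdlan, within 1.5-fold both times.

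Nlrp3 carried the broadest mark of the 8. In NT it had 3258 tags in 2 peaks, or 195.5 RPM (188.9 to 202.4), over 10852 bp. With curdlan it had 4887 tags in 2 peaks, or 229.6 RPM (223.2 to 236.1), over 15709 bp. With curdlan + FK506 it had 4831 tags in 1 peak, or 248.1 RPM (241.2 to 255.2), over 16216 bp, the longest of the 14878 peaks of that list. The mark ended 10.9 kb into the gene in NT cells, and after curdlan it reached 14.2 kb (14.04 kb when FK506 was present). The NT peaks were separated, ending at 5707 bp and starting again at 6981 bp, and the curdlan peaks nearly met, at 5754 and 5769 bp. The intronic NFATc2 summit farthest from the TSS lay in the stretch marked in the curdlan lists only. Relative to all genes, Nlrp3 had a log2 ratio of 0.36 (0.30 to 0.43) for curdlan against NT and 0.16 (0.10 to 0.21) for curdlan + FK506 against curdlan, both within 1.5-fold. Against NT, the curdlan + FK506 value was 0.52 (0.46 to 0.59), 0.67 where only peaks within 1 kb of a TSS were counted, -0.04 per kb of peak and -0.06 on fold enrichment, so its direction depended on the scale. Per kb of peak the curdlan against NT value was -0.12, since the peaks were longer with curdlan, and on fold enrichment the curdlan + FK506 against curdlan value was -0.41. At most 1 tag per position was kept, which limits how high the tallest peaks can count.

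**Figure D3:**
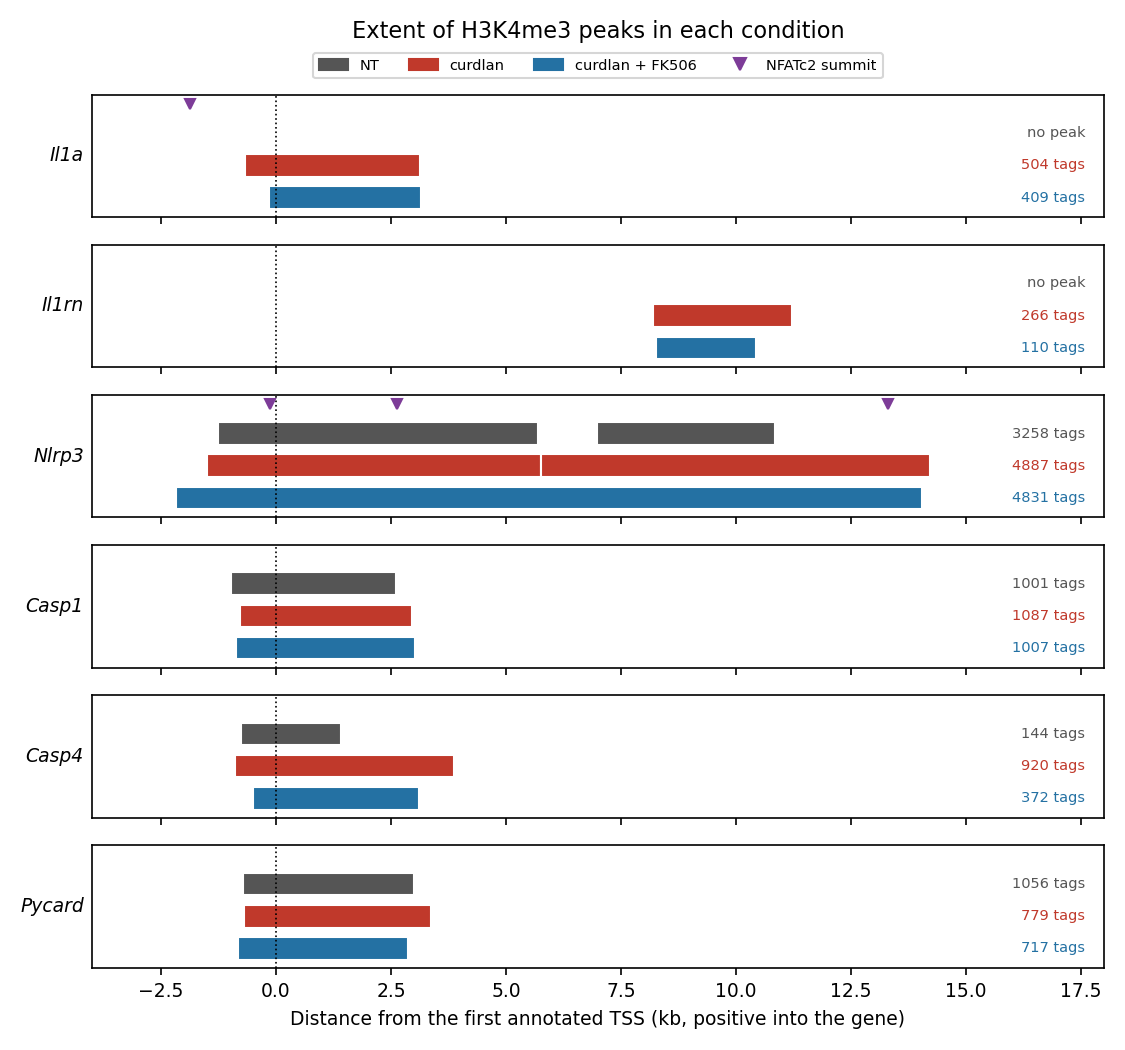
Extent of the H3K4me3 peaks at the 6 genes that have any; the horizontal axis is the distance from the first annotated TSS in kb, positive into the gene, bars are peaks in NT, curdlan and curdlan + FK506 with their tags at the right, and triangles are NFATc2 summits. The Nlrp3 peaks spanned 10852, 15709 and 16216 bp, the Casp4 peak was 2174, 4778 and 3603 bp, and the Il1rn peak lay at an inner TSS. The median length of all peaks was 2371, 2575 and 2493.5 bp in NT, curdlan and curdlan + FK506. Relative to all genes, the log2 length ratio of curdlan to NT was 0.49 for Nlrp3 and 1.09 for Casp4.

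Among the 4 genes with a peak in every list, Casp4 differed most between conditions. In NT its peak held 144 tags, or 8.64 RPM (7.29 to 10.2), over 2174 bp. With curdlan it held 920 tags, or 43.2 RPM (40.5 to 46.1), over 4778 bp, and with curdlan + FK506 372 tags, or 19.1 RPM (17.2 to 21.2), over 3603 bp. The curdlan + FK506 value was thus between the others, and none of the 3 intervals overlap. The level stood above 6.67% of protein-coding genes with a peak in NT, 49.6% with curdlan and 17.1% with curdlan + FK506.

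Relative to all genes the Casp4 log2 ratio was 2.45 (2.20 to 2.72) for curdlan against NT, or 5.48-fold higher, a ratio reached or exceeded by 0.108% of 13019 genes that had peaks in both of these lists. Curdlan + FK506 against curdlan gave -1.13 (-1.31 to -0.96), or 2.20-fold lower, and curdlan + FK506 against NT gave 1.32 (1.04 to 1.61), or 2.503-fold higher. On the fold enrichment scale, 17.93, 88 and 53.14, the first of these was 1.57 and the second -0.45, which is short of 1.5-fold. Per kb of peak they were 1.37 and -0.76. The Casp4 promoter printed above has GGAAAA starting 102 bp before the TSS, overlapping kappa B matches from 72 bp before it, and another kappa B match 18 bp before it. Such matches stand in 20.7% (GGAAAA) and 7.69% (kappa B) of the same stretch of all protein-coding genes. The Il1a promoter has an AP-1 match 12 bp before its TSS, and 6.004% of promoters have one.

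Casp1, next to it, moved little. It held 1001, 1087 and 1007 tags in NT, curdlan and curdlan + FK506, or 60.1 (56.4 to 63.9), 51.1 (48.1 to 54.2) and 51.7 (48.6 to 55.0) RPM, over 3606, 3751 and 3898 bp. Relative to all genes the log2 ratio was -0.10 (-0.23 to 0.02) for curdlan against NT and 0.06 (-0.06 to 0.19) for curdlan + FK506 against curdlan, and both intervals include 0. On fold enrichment, 23.19, 51.53 and 52.44, the centred value for curdlan against NT was 0.42. None of GGAAAA, AP-1, kappa B and ISRE stands in the 250 bp before its TSS. The same holds for the 250 bp before the Pycard TSS and before the inner Il1rn TSS, so the lack of matches does not go with an unchanged mark. Neither of the 2 caspase genes had an NFATc2 summit within 100 kb. The intervals of their H3K4me3 ratios, which cover counting error only, do not overlap in either comparison. What set this difference was not tested.

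Pycard, the adaptor gene, was lower with curdlan. It held 1056 NT tags, 779 after curdlan and 717 after curdlan + FK506, or 63.4 (59.6 to 67.3), 36.6 (34.1 to 39.3) and 36.8 (34.2 to 39.6) RPM. Relative to all genes the log2 ratio was -0.66 (-0.80 to -0.53) for curdlan against NT, or 1.58-fold lower, close to the 1.5-fold limit, and 0.05 (-0.10 to 0.20) for curdlan + FK506 against curdlan (-0.24 on fold enrichment). The peak length changed little, at 3715, 4065 and 3717 bp.

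Per kb of peak, a scale that depends on the length of the called peaks, the order of the levels differed between the lists. In NT, Nlrp3 (18.0 RPM per kb), Pycard (17.1) and Casp1 (16.7) had overlapping intervals, and Casp4 (3.98) lay below them. With curdlan, Nlrp3 (14.6) and Casp1 (13.6) came first with overlapping intervals, Casp4 (9.04) and Pycard (9.001) next, also overlapping, then Il1a (6.20) and Il1rn (4.12). With curdlan + FK506 the order was Nlrp3 (15.3), Casp1 (13.3), Pycard (9.91), Il1a (6.38), Casp4 (5.30) and Il1rn (2.62). Of these neighbours only Il1a and Casp4 had overlapping intervals.

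Set against all genes, the 3 comparisons gave few of the 8 genes past 1.5-fold. For curdlan against NT, 1 of 4 genes with a peak in both lists was higher (Casp4), against 3.68% of protein-coding genes, and 1 lower (Pycard), against 1.81%. For curdlan + FK506 against curdlan, 0 of 6 were higher, against 0.568%, and 2 lower (Casp4 and Il1rn), against 1.36%. For curdlan + FK506 against NT, 1 of 4 was higher (Casp4, against 2.96%) and 1 lower (Pycard, -0.60, against 1.76%). The medians over the genes with a peak in both lists were 0.13, -0.04 and 0.24, where the centred median of all genes is 0. The curdlan library enters 2 of these comparisons, and each of the other libraries likewise, so the comparisons are not independent. Before centring, the median log2 ratio of all genes was -0.13, -0.04 and -0.18. The share of all tags inside peaks was 57.9%, 52.8% and 51.3% in NT, curdlan and curdlan + FK506. Scaled to tags inside peaks in place of all tags, the uncentred medians of the 3 comparisons were -0.00065, 7.3e-06 and -0.0046. What set the share in each library was not tested.

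**Figure D4:**
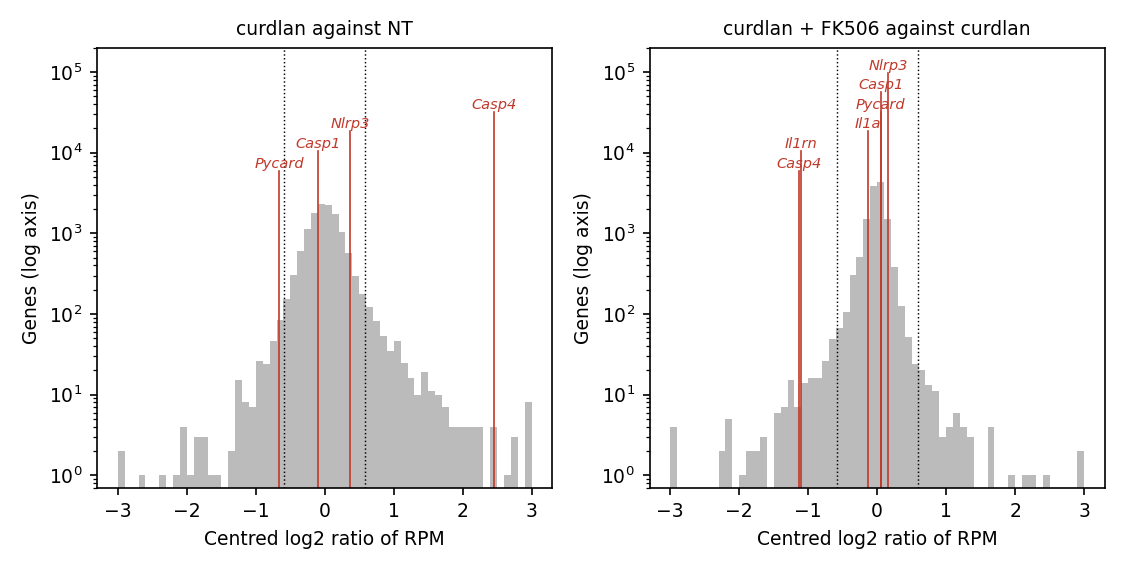
Centred log2 ratio of H3K4me3 RPM for curdlan against NT (left) and curdlan + FK506 against curdlan (right); grey bars count all genes with a peak in both lists (log axis), ratios beyond the axis are drawn in the end bins, red lines mark the genes described here, with line height only separating the names, and dotted lines mark 1.5-fold. Casp4 stands at 2.45 on the left and, with Il1rn (-1.10), at -1.13 on the right, while Casp1 is near 0 in both.

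Of 38 other genes of the IL-1 and inflammasome pathways, 27 had an H3K4me3 peak in every list and 11 had none in any. Over protein-coding genes, 47.7% had none in any list, and 51.5% (NT), 51.2% (curdlan) and 51.1% (curdlan + FK506) had a peak. Of the 11 without an NT peak, 0 had one with curdlan, where 1.35% of such protein-coding genes did, so a count of 0 is near the background. All 9 receptor genes and all 7 adaptor genes had a peak, as did 7 of 8 genes of execution and regulation. A peak at 4 of 8 sensor genes is near the share over protein-coding genes. None of the 6 other ligand genes had one (Il33, Il1f5, Il1f6, Il1f8, Il1f9, Il1f10). Il1rl1 and Il18r1 shared the same peaks. An NFATc2 summit lay within 10 kb of 14 of the 38 and within 100 kb of 30, where the shares over protein-coding genes were 16.3% and 55.4%. For curdlan against NT, 1 of 27 genes was past 1.5-fold higher, against 3.68% of protein-coding genes, Traf6, a ubiquitin ligase downstream of the IL-1 receptor, at 44.7, 68.9 and 56.1 RPM in the 3 lists (log2 ratio 0.76). One was lower, against 1.81%, the sensor gene Nlrp1b, at 31.6, 14.8 and 14.4 (-0.96). For curdlan + FK506 against curdlan, 0 were higher, against 0.568%, and 1 was lower, against 1.36%, Irak3, an inhibitor of IL-1 receptor signalling, at 11.0, 8.74 and 5.44 RPM (-0.64). In the last comparison, curdlan + FK506 against NT, 0 were higher, against 2.96%, and 3 lower, against 1.76%, Nlrp1b (-0.95), Irak3 (-0.83) and Sigirr (-0.64). The median log2 ratio over the 27 was -0.19, 0.00 and -0.14, against 0 over all genes.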

How the data were processed

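Peak lists of 4 ChIP-seq experiments were used. The authors used Bowtie to map reads (mm9), and MACS 1.4.2 per the file headers to call peaks in each ChIP library against its input (p threshold 1e-05, at most 1 tag per position). The deposited lists hold, for each peak, start, end, summit offset, the count of tags (not normalized), a score of -10 log10 p, the fold enrichment as a ratio over local input background, and an FDR in percent. The genome was NCBIM37 (mm9) with GENCODE vM1 genes.

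RPM values were counts divided by the ChIP tags in the file header, per 1000000 tags. Log2 ratios were centred on the median of all genes with a peak in both lists, and a gene was called at 1.5-fold or more. Intervals are 95% exact Poisson intervals of the tags and, for ratios, exact binomial intervals. With 1 library per condition no p-value between conditions was computed. Motifs were searched on both strands. Python 3.11.15, pandas 2.3.3 and scipy 1.17.1 were used, and the code was tested on simulated data.

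The 8 genes and the other gene lists were chosen with earlier results of these data known. All 8 are named. Genes of the related list are named where past 1.5-fold, and the genes with the ratios most like those of a called gene by Euclidean distance of 2 log2 ratios. One gene that this rule names is not reported here. Alternatives covered the peak threshold, FDR, windows, TSS choice, scaling, centring and motif. The ISRE search and the printing of sequences were chosen after the values were seen.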

Additional observations from a re-analysis of the deposited data

How the results depend on the processing

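No paired analysis was possible because each condition had 1 library. Of 48 alternative values for the counts in the text, 43 stayed within 1.5 times and 5 moved. The 21 distinct NFATc2 summits became 11 with p of 1e-10 or less, 10 within 20 kb and 4 when 1 of the 8 genes had to be the nearest gene. The 3 genes with a summit within 10 kb became 5 within 30 kb. The 2 genes past 1.5-fold for curdlan + FK506 against curdlan became 1 on fold enrichment, and that gene was Il1a (0.62), while Casp4 (-0.45) and Il1rn (-0.36) fell short. For curdlan + FK506 against NT, Casp1 was past 1.5-fold on fold enrichment (0.73) and not as reported (-0.04). Of 84 values for single genes, 58 stayed within their interval and 26 moved. The 58, like the 43 above, include the scaling to tags inside peaks. That scaling cannot move a centred ratio, so its values stayed by construction and are no check. No called value changed sign. Ratios within 1.5-fold that did, beside those above, were, per kb of peak, Nlrp3 for curdlan (-0.12) and curdlan + FK506 (-0.04) against NT and, for curdlan + FK506 against curdlan, Il1a (0.05) and Casp1 (-0.02). On fold enrichment they were Nlrp3 (-0.41) and Pycard (-0.24) for curdlan + FK506 against curdlan, Nlrp3 for curdlan + FK506 against NT (-0.06) and Casp1 for curdlan against NT (0.42). Over all genes, those past 1.5-fold higher and lower for curdlan against NT were 491 and 244 as reported and 1807 and 1860 on fold enrichment, where the median log2 ratio of all genes was 0.73. For curdlan + FK506 against curdlan these were 77 and 189, and 1807 and 1807 on fold enrichment. Without centring, 336 were higher and 516 lower for curdlan against NT. The causes were not tested. Depth limits what an absent peak means: at Il1b and Il18 only a level below the threshold of the caller is known.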

Other observations

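Over the 3 conditions, 2 of the 3 genes whose centred log2 ratios (curdlan against NT, curdlan + FK506 against curdlan) were closest to those of Casp4, among 12505 genes with a peak in every list and at least 100 tags in NT, were Plk3 and Sh3bp5, at Euclidean distances of 0.56 and 0.61. Plk3, a polo-like kinase gene, had 34.7, 128.2 and 72.5 RPM in NT, curdlan and curdlan + FK506, and Sh3bp5 had 6.96, 25.8 and 15.3. Both were higher with curdlan than in NT, and between the others with curdlan + FK506. Casp4 had the larger ratio for curdlan against NT, 2.45 against 2.02 and 2.02.

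The genes closest to Pycard were Klhl35, Cyp4f16 and Tlr11, the gene of a Toll-like receptor, each at a distance of 0.02. Tlr11 had 49.9, 28.4 and 28.6 RPM, lower with curdlan and alike with and without FK506. With 3 libraries, such a likeness is a description of them.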
